A study of Mus musculus with 14 samples.

Results

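Gene expression was compared between kidneys of Ripk4 wild-type (WT) mice given cisplatin and kidneys of untreated WT mice. Of the 14 kidney libraries of the series, 7 entered this comparison, chosen by their genotype and treatment labels: 4 from WT mice 4 days after an intraperitoneal dose of 15 mg/kg cisplatin, here called cisplatin kidneys, and 3 from untreated WT mice, here called untreated kidneys. The other 7 libraries come from mice with a conditional knockout (cKO) of the kinase gene Ripk4, 4 of them labelled cisplatin and 3 untreated. They were used to estimate the spread shared by all groups and, at the end, to set the WT response beside the cKO response. The labels name no Cre driver, floxed allele, strain, age, sex, litter or batch, they describe the reference as untreated and not as injected with vehicle, and they do not say that each library is a separate animal. P-values therefore measure the spread between these libraries.

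Cisplatin carries platinum that binds DNA bases and joins neighbouring ones. It enters kidney tubule cells through organic cation and copper transporters and injures above all the proximal tubule, the segment that reclaims most filtered solutes and burns fatty acids and amino acids for energy. Injured tubules are known to switch on secreted injury markers and p53 targets, to lose transporters, and to draw in white blood cells.

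Kidney markers were present in all WT libraries: uromodulin, made by the thick ascending limb, was at 1668 to 2579 FPKM in cisplatin kidneys and 1925 to 2053 FPKM in untreated kidneys, and Ripk4 itself was at 7.61, 10.6, 13.3 and 9.002 FPKM in cisplatin kidneys and 7.18, 8.11 and 8.51 FPKM in untreated kidneys. The smallest steps of the FPKM values give an estimate of 40859598 to 76958969 reads assigned to genes per WT library. It serves as a relative depth and not as an established count. FPKM scales the fragments of a gene by its length and by the depth of its library. By that estimate 1 read in a gene of 1 kb was worth 0.0130 to 0.0245 FPKM. Some libraries stand apart. WT cisplatin replicate 1 correlated with the other cisplatin libraries at 0.959 to 0.967 (Pearson r of log2(FPKM + 1) across genes), where those correlated at 0.975 to 0.983 with each other, and a fit with library weights gave it 0.165 against 0.596 to 2.26 in the other WT libraries. The library labelled cKO cisplatin replicate 4 looked like an untreated one, with the injury marker Havcr1 at 5.38 FPKM against 35.2 to 70.8 FPKM in the other cKO cisplatin libraries. For all genes and for some lists, counts are therefore also given without WT cisplatin replicate 1. The contrast with cKO is also given without cKO cisplatin replicate 4. Lists shown without such a count may have moved too. Without WT cisplatin replicate 1, for example, 31 amino acid breakdown genes fell in place of 22, and 20 MAP kinase feedback genes rose in place of 16. The red-cell genes Hbb-bs and Alas2 moved with treatment, at 0 to 0.213 and 0 to 0.0982 FPKM in cisplatin kidneys against 363 to 530.4 and 5.33 to 8.29 FPKM in untreated kidneys. Whether blood left in the tissue differed between the groups cannot be told apart from the treatment.

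Cisplatin changed a large part of the kidney transcriptome. Of 15193 genes tested with limma on log2(FPKM + 1), 3392 rose (22.3% of the genes tested) and 1832 fell (12.1%) at a Benjamini-Hochberg adjusted p under 0.05. These shares are the background for every list below, and all adjusted p-values are from this fit across all genes. At least 2-fold changes of FPKM + 1 were found for 839 genes that rose and 499 that fell. At least 8-fold changes were found for 54 that rose and 24 that fell. The added 1 makes the folds of low genes smaller than those of their FPKM. The groups did not overlap for 3737 genes that were higher (24.6%) and 2174 that were lower (14.3%). Nop56, Arg2, Car14, Pde6a, Alas2 and Ugt1a10, named below or above, each overlap a gene with a higher FPKM, and since strand use in counting is not given in the sources used here, part of their reads may belong to it. The balance of rises and falls depends on scaling. The median gene stood at 0.10 on the log2 scale with the deposited FPKM and at 0 after median-of-ratios scaling, which called 2591 genes higher and 2409 lower. Quantile normalization called 2650 higher and 2600 lower. Changes are best read relative to that shift of 0.10, and list medians smaller than it have no firm direction. Without WT cisplatin replicate 1, 4447 genes rose (29.3%) and 2005 fell (13.2%).

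**Figure D1:**
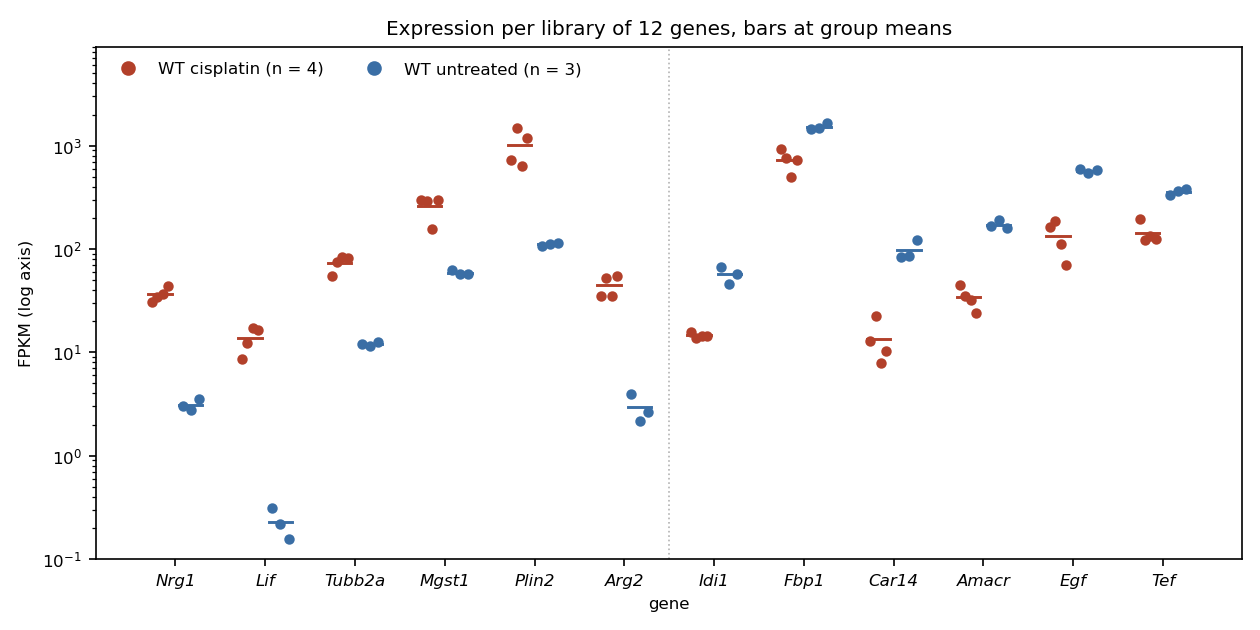
FPKM per library (log axis) for 12 genes described in the text, with the 4 cisplatin kidneys left of the 3 untreated kidneys for each gene and a bar at each group mean. The cisplatin libraries lie above all untreated libraries in the 6 genes on the left and below them in the 6 on the right. Some of these genes come from the lists of largest changes, which required groups without overlap.

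The largest rises reached well beyond the usual injury markers Lcn2, Havcr1 and Krt20, which led the list of 30. Only called genes whose groups did not overlap could enter the lists of 30 rises and 30 falls. Separation of the groups is therefore no result for these genes. Some of them encode secreted plasma proteins. Gc, the vitamin D-binding protein, stood at 245, 307, 273 and 422 FPKM in cisplatin kidneys, against 15.4, 11.6 and 15.4 FPKM in untreated kidneys (log2 fold change 4.35 ± 0.44, adjusted p = 2.40e-05). Fga, the fibrinogen alpha chain, stood at 135, 225, 190.4 and 247 FPKM in cisplatin kidneys, against 9.98, 7.64 and 6.205 FPKM in untreated kidneys (log2 fold change 4.47 ± 0.48, adjusted p = 3.80e-05). In both genes every cisplatin library was far above the highest untreated one. The protease inhibitor gene Serpina10 was at 20.7, 13.2, 45.1 and 24.1 FPKM in cisplatin kidneys, against 1.43, 0.102 and 0.343 FPKM in untreated kidneys (log2 fold change 3.995 ± 0.52, adjusted p = 0.000102), with untreated replicate 1 above the other untreated libraries yet far below the lowest treated one. Lrg1, a secreted glycoprotein of the acute phase, rose as well (59.6 ± 12.2 FPKM in cisplatin kidneys and 4.095 ± 1.41 FPKM in untreated kidneys, log2 fold change 3.58 ± 0.36, adjusted p = 2.40e-05). Means are given with their SD, n = 4 cisplatin and n = 3 untreated libraries, and fold changes on the log2 scale are given with their standard error.

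Other large rises were growth factors, receptors and enzymes. Tnfrsf12a, the receptor for the cytokine TWEAK, stood at 263, 287, 356 and 337 FPKM in cisplatin kidneys, against 14.9, 17.8 and 13.4 FPKM in untreated kidneys (log2 fold change 4.25 ± 0.45, adjusted p = 3.36e-05). Its ligand gene Tnfsf12 also rose (17.8 ± 2.59 FPKM in cisplatin kidneys and 7.58 ± 0.495 FPKM in untreated kidneys, log2 fold change 1.12 ± 0.12, adjusted p = 3.68e-05). Eda2r, another TNF receptor and a p53 target, rose (log2 fold change 3.64 ± 0.55, adjusted p = 0.000302), as did the squamous envelope gene Sprr2g (log2 fold change 3.67 ± 0.31, adjusted p = 1.04e-05). Arg2, the mitochondrial arginase, was at 34.9, 51.9, 35.4 and 55.2 FPKM in cisplatin kidneys, against 3.96, 2.18 and 2.66 FPKM in untreated kidneys (log2 fold change 3.52 ± 0.33, adjusted p = 1.74e-05). The carbonyl reductase Cbr3 was higher in all 4 treated libraries but unevenly so, at 31.5, 16.2, 13.4 and 143 FPKM in cisplatin kidneys against 1.34, 1.45 and 1.16 FPKM in untreated kidneys (log2 fold change 3.83 ± 0.57, adjusted p = 0.000246). Cyp4a14, a fatty acid omega-hydroxylase, was more uneven still, at 366, 871, 14.6 and 279 FPKM in cisplatin kidneys, against 7.05, 2.61 and 2.67 FPKM in untreated kidneys (log2 fold change 5.35 ± 1.04, adjusted p = 0.00162): WT cisplatin replicate 3 was far below the other treated libraries. Ugt1a10, a glucuronosyltransferase that shares exons with the rest of the Ugt1a locus, was called at log2 fold change 3.89 ± 1.27, adjusted p = 0.0299 but the call was lost when WT cisplatin replicate 2 (adjusted p = 0.0762) or 4 (adjusted p = 0.0624) or untreated replicate 1, 2 or 3 (adjusted p = 0.076, 0.0728 and 0.0762) was left out.

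The largest fall was that of the red-cell gene Hbb-bs, whose levels are given above. Carriers and enzymes of the tubule were also among the 30 largest. In bulk tissue, fewer cells of a type and less RNA per cell cannot be told apart. Car14, a membrane carbonic anhydrase, stood at 12.7, 22.5, 7.94 and 10.2 FPKM in cisplatin kidneys, against 84.6, 86.4 and 122 FPKM in untreated kidneys (log2 fold change -2.86 ± 0.31, adjusted p = 3.93e-05). Snx31, a sorting nexin, stood at 4.84, 3.05, 3.17 and 2.65 FPKM in cisplatin kidneys, against 27.05, 37.7 and 27.9 FPKM in untreated kidneys (log2 fold change -2.86 ± 0.24, adjusted p = 1.04e-05). C1qtnf3, a secreted adiponectin relative, stood at 14.5, 22.3, 13.4 and 8.05 FPKM in cisplatin kidneys, against 122.9, 98.8 and 102 FPKM in untreated kidneys (log2 fold change -2.88 ± 0.28, adjusted p = 2.04e-05). As for the rises, groups without overlap were a condition for entering this list. Falls of the same order were found for the organic anion carriers Slc22a28 (log2 fold change -3.04 ± 0.30, adjusted p = 2.04e-05), Slc22a22 (log2 fold change -2.73 ± 0.31, adjusted p = 5.14e-05) and Slco1a1 (log2 fold change -3.15 ± 0.37, adjusted p = 6.18e-05). They were also found for the steroid dehydrogenase Hsd3b2 (log2 fold change -2.78 ± 0.21, adjusted p = 5.69e-06), the nuclease Dnase1 (log2 fold change -3.13 ± 0.41, adjusted p = 0.000114) and the esterase Ces1e (log2 fold change -2.83 ± 0.32, adjusted p = 5.14e-05).

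Some falls were close to complete loss of signal. Pvalb, the calcium buffer of the early distal convoluted tubule, stood at 0.0235, 0.203, 0.0382 and 0.0601 FPKM in cisplatin kidneys, against 10.2, 10.1 and 14.5 FPKM in untreated kidneys (log2 fold change -3.53 ± 0.37, adjusted p = 3.36e-05). Pde6a, a phosphodiesterase best known from photoreceptors, stood at 0.0679, 0.0879, 0.0496 and 0.0578 FPKM in cisplatin kidneys, against 5.25, 8.85 and 11.3 FPKM in untreated kidneys (log2 fold change -3.096 ± 0.26, adjusted p = 1.04e-05). Fhit, a very long gene at a fragile chromosome site, stood at 0.0669, 0.108, 0.109 and 0.0569 FPKM in cisplatin kidneys, against 9.63, 8.53 and 10.3 FPKM in untreated kidneys (log2 fold change -3.27 ± 0.63, adjusted p = 0.0015). Groups without overlap were a condition for listing these genes, and their groups lay far apart. Others were uneven: Rgs14, a regulator of G protein signalling, was at 0.357, 0.446, 8.69 and 1.31 FPKM in cisplatin kidneys, against 15.9, 19.3 and 20.9 FPKM in untreated kidneys (log2 fold change -2.93 ± 0.74, adjusted p = 0.0082), with replicate 3 highest of the treated libraries. Sugct, which encodes a glutarate CoA-transferase, was at 42.2, 36.2, 1.25 and 0.988 FPKM in cisplatin kidneys, against 65.9, 69.4 and 137 FPKM in untreated kidneys (log2 fold change -3.23 ± 0.97, adjusted p = 0.0204), with replicates 3 and 4 near 1 FPKM, and lost its call without WT cisplatin replicate 3 (adjusted p = 0.0592), WT cisplatin replicate 4 (adjusted p = 0.0549) or WT untreated replicate 3 (adjusted p = 0.0794).

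**Figure D2:**
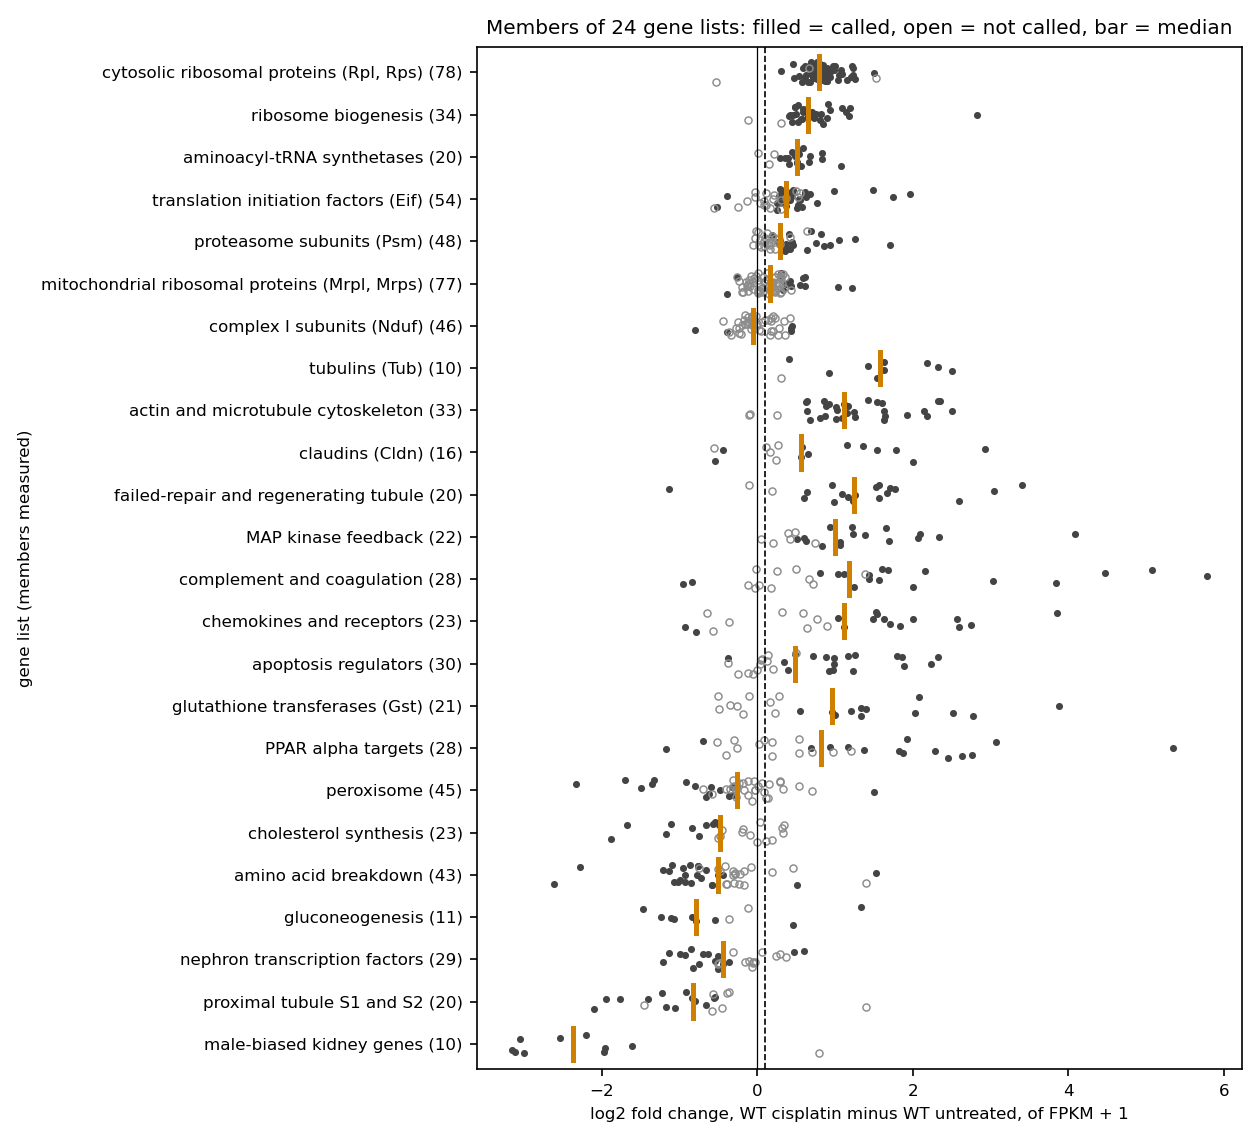
Log2 fold change (cisplatin minus untreated, log2(FPKM + 1) scale) of each measured member of 24 gene lists, 1 point per gene, filled where the gene was called and open where it was not; the bar marks the list median and the dashed line the median of all genes tested, 0.10. Ribosomal protein, tubulin and cytoskeleton genes lie almost wholly to the right of that line and all but 1 of the male-biased kidney genes to the left.

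The machinery that makes cytosolic proteins rose as a block. Ribosomal proteins build the ribosome, biogenesis factors assemble it in the nucleolus, and aminoacyl-tRNA synthetases charge tRNA. Of 78 ribosomal protein genes, 75 rose and 0 fell, with a median log2 fold change of 0.80 against 0.10 over all genes. Where leaving out 1 WT library moved the larger count of a list by over 1.5 times, the library is named. Of 34 ribosome biogenesis genes, 32 rose and 0 fell (median 0.65). Of 20 tRNA synthetases, 17 rose and 0 fell (median 0.51). After median-of-ratios scaling, which puts the median of all genes at 0, these medians were lower by about that shift (0.67, 0.54 and 0.39).

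Rpl12, a protein of the large subunit, stood at 255, 211, 263 and 239 FPKM in cisplatin kidneys, against 109.6, 94.6 and 104 FPKM in untreated kidneys (log2 fold change 1.23 ± 0.11, adjusted p = 1.40e-05). Rps19, of the small subunit, stood at 587, 383, 429 and 468 FPKM in cisplatin kidneys, against 201, 191 and 201 FPKM in untreated kidneys (log2 fold change 1.22 ± 0.13, adjusted p = 3.95e-05), with WT cisplatin replicate 1 the highest. Myc, the transcription factor that drives ribosome production, stood at 18.1, 33.9, 51.2 and 34.03 FPKM in cisplatin kidneys, against 4.26, 3.54 and 3.36 FPKM in untreated kidneys (log2 fold change 2.82 ± 0.29, adjusted p = 2.57e-05). The groups did not overlap in any of these. The nucleolar proteins Nop56 (log2 fold change 1.18 ± 0.14, adjusted p = 7.64e-05), Gar1 (log2 fold change 1.09 ± 0.13, adjusted p = 7.38e-05) and Npm1 (log2 fold change 0.84 ± 0.10, adjusted p = 7.77e-05) rose with them. So did the valyl- and glycyl-tRNA synthetases Vars (log2 fold change 1.07 ± 0.15, adjusted p = 0.000185) and Gars (log2 fold change 0.58 ± 0.09, adjusted p = 0.000307).

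Translation initiation factors followed, with 33 of 54 higher and 2 lower (median 0.37). Eif4ebp1, the repressor of cap-dependent initiation, was at 32.6 ± 6.72 FPKM in cisplatin kidneys and 7.48 ± 0.707 FPKM in untreated kidneys (log2 fold change 1.97 ± 0.16, adjusted p = 9.96e-06). Eif6, which keeps the large subunit from joining too early, was at 306 ± 55.1 FPKM in cisplatin kidneys and 89.4 ± 4.199 FPKM in untreated kidneys (log2 fold change 1.75 ± 0.15, adjusted p = 1.36e-05). Of 28 nuclear pore and import genes, 14 rose and 0 fell, among them the GTPase gene Ran (log2 fold change 0.82 ± 0.11, adjusted p = 0.000114). That count was 23 without WT cisplatin replicate 1 and 9 without WT cisplatin replicate 3 or without untreated replicate 2 or 3. Genes of the proteasome, which degrades tagged proteins, moved too: 24 of 48 subunit and regulator genes rose and 0 fell (median 0.29), 12 without untreated replicate 2, led by the immune proteasome activator Psme2 (log2 fold change 1.26 ± 0.15, adjusted p = 6.35e-05) and the catalytic subunit Psmb10 (log2 fold change 1.701 ± 0.26, adjusted p = 0.000295). Of 8 genes of the CCT chaperonin, which folds tubulin and actin, 6 rose and 1, Cct6b, fell (log2 fold change -0.52 ± 0.12, adjusted p = 0.00577). These counts depended on scaling. After median-of-ratios scaling 19 initiation factors, 11 nuclear pore and import genes, 8 proteasome genes and 3 CCT genes rose, and 4, 0, 0 and 1 fell. That scaling called 2591 of all 15193 genes higher, so the proteasome count was then near the share of all genes.

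The protein machinery of mitochondria did not follow. Of 77 mitochondrial ribosomal proteins, 12 rose and 2 fell (median 0.17), shares below the background. Of these genes 7, 6 and 7 rose without untreated replicate 1, 2 or 3, and 5 fell without WT cisplatin replicate 1. Of 46 complex I subunits and assembly factors, 3 rose and 2 fell (median -0.06), but 2 rose and 16 fell without WT cisplatin replicate 1, and 1 rose without untreated replicate 2. Of 33 genes of cytochrome oxidase and ATP synthase, 1 rose and 6 fell, and 1 and 9 without that library, while 3 fell without untreated replicate 3. WT cisplatin replicate 1 was apart in these lists: the median deviation of complex I genes from the untreated mean was 0.46, -0.18, -0.27 and -0.16 in cisplatin replicates 1 to 4, and that of mitochondrial ribosomal proteins 0.49, -0.01, 0.11 and 0.05. In the same libraries the cytosolic ribosomal proteins deviated by 1.11, 0.55, 0.77 and 0.80 and ribosome biogenesis genes by 0.48, 0.61, 0.73 and 0.74, above 0 in all 4. Ppargc1a, the coactivator that drives mitochondrial gene expression, fell (13.1 ± 1.29 FPKM in cisplatin kidneys and 23.3 ± 1.46 FPKM in untreated kidneys, log2 fold change -0.79 ± 0.18, adjusted p = 0.00394).

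Transcript length moved with WT cisplatin replicate 1. Its median deviation from the untreated mean was 0.27 for genes with 1 to 2 kb of exon sequence and -0.32 for genes over 8 kb, where cisplatin replicates 2, 3 and 4 stood at 0.14, 0.09 and 0.14 over 8 kb. The part of length in the list results was not tested. Without that library 72 ribosomal protein, 32 biogenesis and 18 synthetase genes rose and 1, 0 and 0 fell. Their medians were then 0.70, 0.70 and 0.53, where that of all genes was 0.15.

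**Figure D3:**
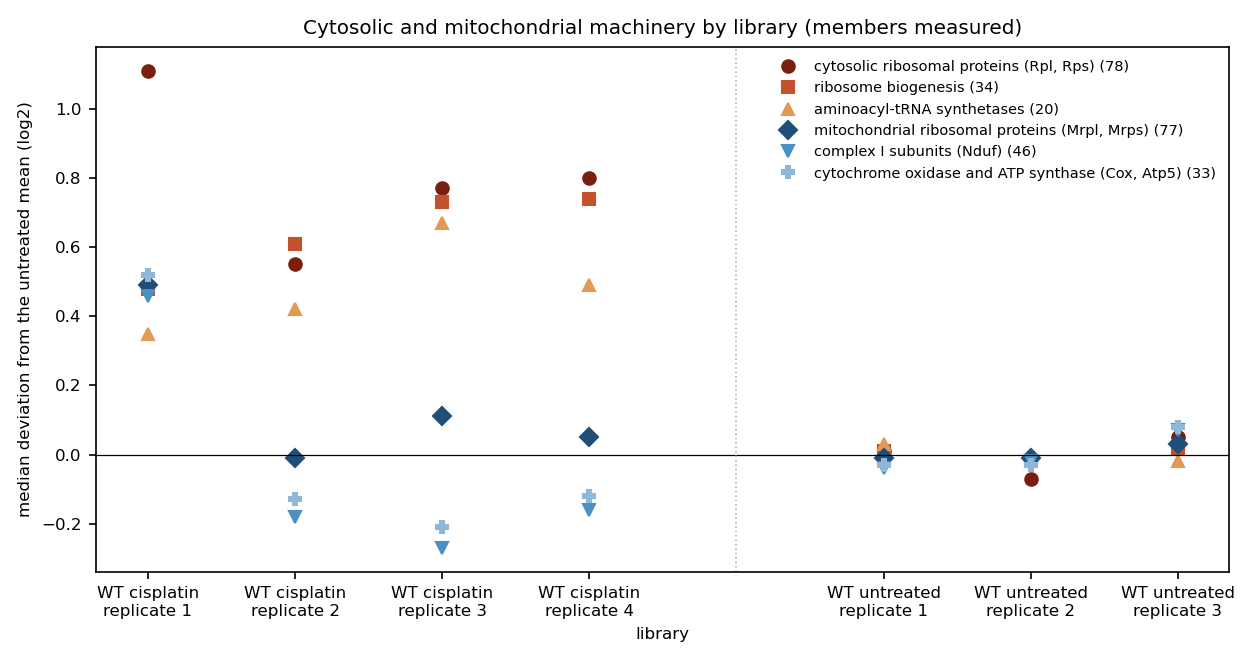
Median deviation of the members of 6 gene lists from the untreated mean (log2(FPKM + 1) scale) in each WT library, cisplatin libraries left and untreated libraries right. Cytosolic ribosomal proteins, ribosome biogenesis and tRNA synthetases are above 0 in all 4 cisplatin libraries, while mitochondrial ribosomal proteins, complex I and cytochrome oxidase with ATP synthase lie between 0.46 and 0.52 in cisplatin replicate 1 and between -0.27 and 0.11 in cisplatin replicates 2 to 4.

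Genes of the cytoskeleton and several families of surface and junction genes had more rises than falls. Which cells of the whole kidney these changes come from was not tested. Tubulins form microtubules, keratins the intermediate filaments of epithelia, and annexins and S100 proteins bind calcium at membranes. Of 10 tubulin genes, 9 rose and 0 fell (median 1.58). Of 33 actin and microtubule genes, 30 rose and 0 fell (median 1.11). Tubb2a, a beta tubulin with the close copy Tubb2b, stood at 54.3, 74.7, 83.4 and 81.4 FPKM in cisplatin kidneys, against 11.9, 11.5 and 12.6 FPKM in untreated kidneys (log2 fold change 2.501 ± 0.18, adjusted p = 5.69e-06). Tuba1c, an alpha tubulin, stood at 75.8, 71.4, 94.3 and 72.2 FPKM in cisplatin kidneys, against 23.1, 25.7 and 24.6 FPKM in untreated kidneys (log2 fold change 1.63 ± 0.17, adjusted p = 2.93e-05). In neither gene did the groups overlap, and replicate 3 was the highest in both. Reads of near-identical tubulin copies may be shared between them, so the split between copies is uncertain.

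Of 10 annexins, 6 rose and 0 fell, and of 11 S100 genes, 7 rose and 1 fell. The gene that fell was S100g, a vitamin D-dependent calcium carrier (log2 fold change -0.56 ± 0.19, adjusted p = 0.032), whose groups overlapped and whose call was lost without WT cisplatin replicate 3 (adjusted p = 0.0861), WT cisplatin replicate 4 (adjusted p = 0.081), untreated replicate 1 (adjusted p = 0.105) or untreated replicate 3 (adjusted p = 0.0894). Anxa3 stood at 79.1, 76.6, 187 and 200.4 FPKM in cisplatin kidneys, against 14.4, 12.4 and 11.8 FPKM in untreated kidneys (log2 fold change 3.16 ± 0.32, adjusted p = 2.57e-05). S100a10, the partner of annexin A2, stood at 651, 629, 643 and 584 FPKM in cisplatin kidneys, against 125, 90.9 and 101 FPKM in untreated kidneys (log2 fold change 2.57 ± 0.18, adjusted p = 5.69e-06). The treated libraries of S100a10 were close together, whereas replicates 1 and 2 were lower than replicates 3 and 4 for Anxa3.

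Junction and adhesion genes changed in the same kidneys. Of 16 claudins, the tight junction proteins, 9 rose and 2 fell. Cldn4 stood at 69.6, 74.4, 126 and 87.7 FPKM in cisplatin kidneys, against 11.9, 10.4 and 9.502 FPKM in untreated kidneys (log2 fold change 2.93 ± 0.31, adjusted p = 3.32e-05). Cldn1 stood at 19.6, 32.8, 70.3 and 42.4 FPKM in cisplatin kidneys, against 8.54, 8.302 and 8.87 FPKM in untreated kidneys (log2 fold change 2.001 ± 0.30, adjusted p = 0.000268), with replicate 1 lowest and replicate 3 highest of the treated libraries. Cldn8 and Cldn10 fell (log2 fold change -0.54 ± 0.15, adjusted p = 0.0127 and log2 fold change -0.44 ± 0.13, adjusted p = 0.018). Both lost their call without untreated replicate 1 (adjusted p = 0.0705 and 0.0856). Of 24 integrins, 10 rose, 16 without WT cisplatin replicate 1, among them Itgb4 (log2 fold change 1.73 ± 0.24, adjusted p = 0.000173) and Itga3 (log2 fold change 1.43 ± 0.20, adjusted p = 0.000198).

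Of 10 keratins 5 rose and 0 fell, and besides Krt20 the rises included Krt18 at 55.5, 30.3, 51.7 and 51.1 FPKM in cisplatin kidneys, against 14.4, 13.01 and 11 FPKM in untreated kidneys (log2 fold change 1.77 ± 0.29, adjusted p = 0.000528) and Krt7 at 112 ± 25.2 FPKM in cisplatin kidneys and 45.6 ± 2.71 FPKM in untreated kidneys (log2 fold change 1.26 ± 0.19, adjusted p = 0.000302). Of 29 collagens, 6 rose (20.7%, against 22.3% of all genes) and 5 fell (17.2%, against 12.1%). Without WT cisplatin replicate 1, 14 rose and 4 fell. Only 3 rose without untreated replicate 3, and 3 fell without WT cisplatin replicate 2 or 3 or any of the untreated libraries. Col18a1, the source of endostatin, rose to 112, 189, 294 and 228 FPKM in cisplatin kidneys, against 51.3, 42.6 and 36.5 FPKM in untreated kidneys (log2 fold change 2.15 ± 0.27, adjusted p = 8.54e-05). Col4a4, of the glomerular basement membrane, fell (25.3 ± 5.23 FPKM in cisplatin kidneys and 50.9 ± 3.74 FPKM in untreated kidneys, log2 fold change -0.998 ± 0.17, adjusted p = 0.000567).

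Detoxifying enzymes did not move in a single direction, except the glutathione transferases. These enzymes attach glutathione to reactive compounds, platinum drugs among them. Of 21 glutathione transferase genes, 12 rose and 0 fell (median 0.96). Without WT cisplatin replicate 1 12 rose and 2 fell. Mgst1, the membrane-bound form, stood at 301, 290.5, 155 and 298 FPKM in cisplatin kidneys, against 62.6, 56.9 and 57.4 FPKM in untreated kidneys (log2 fold change 2.08 ± 0.23, adjusted p = 4.01e-05), with replicate 3 lowest of the treated libraries. Gstm5 stood at 238, 212, 189 and 197 FPKM in cisplatin kidneys, against 94.7, 95.4 and 124 FPKM in untreated kidneys (log2 fold change 0.996 ± 0.12, adjusted p = 6.18e-05). Gsta1, which has the near-identical copy Gsta2, stood at 32.4, 11.03, 11.7 and 62.8 FPKM in cisplatin kidneys, against 0.851, 0.441 and 0.617 FPKM in untreated kidneys (log2 fold change 3.88 ± 0.46, adjusted p = 6.37e-05). Its treated libraries differed several-fold among themselves. Gstp1 rose as well (303 ± 87.3 FPKM in cisplatin kidneys and 111 ± 5.904 FPKM in untreated kidneys, log2 fold change 1.401 ± 0.18, adjusted p = 0.000108).

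The promoters of these genes were searched for TGACNNNGC, the core of the antioxidant response element to which NRF2 binds, on both strands and over the 300 bases from 250 before to 50 after the gene start (RefSeq, GRCm38.p6). It was present in 4 of 19 glutathione transferases with a promoter entry, in G6pdx, Me1 and Pgd of 11 genes of the pentose phosphate and NADPH list, and in 13.99% of all genes. The matches upstream of the gene start, on either strand, are shown in capitals for the 3 transferases that were called and for G6pdx, each read along the gene's own strand with 20 bases on either side.
Mgst1: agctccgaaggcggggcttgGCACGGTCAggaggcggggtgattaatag
Gstm5: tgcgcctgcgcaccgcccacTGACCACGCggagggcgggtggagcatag
Gsta3: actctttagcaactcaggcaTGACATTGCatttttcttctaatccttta
G6pdx: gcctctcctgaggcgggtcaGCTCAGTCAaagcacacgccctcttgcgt

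These stretches lie at chr6:138140451-138140499 on the plus strand (Mgst1), chr3:107895792-107895840 on the plus strand (Gstm5), chr1:21240444-21240492 on the plus strand (Gsta3) and chrX:74428909-74428957 on the minus strand (G6pdx). Gsta3 is named for this match and not by the rule for naming genes. It was at 172, 122, 89.1 and 216 FPKM in cisplatin kidneys, against 47.3, 58.3 and 63.04 FPKM in untreated kidneys (log2 fold change 1.33 ± 0.26, adjusted p = 0.00163). A match describes the letters of the window and says nothing of binding.

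Among 42 cytochrome P450 genes, 13 rose (8 without untreated replicate 3) and 12 fell. Cyp4b1, a monooxygenase abundant in mouse kidney, stood at 685, 791, 577 and 580.0 FPKM in cisplatin kidneys, against 3406, 3681 and 3259 FPKM in untreated kidneys (log2 fold change -2.398 ± 0.21, adjusted p = 1.36e-05). Cyp2e1, the ethanol-inducible form, stood at 480.4, 396, 405 and 239 FPKM in cisplatin kidneys, against 1566, 1798 and 1746 FPKM in untreated kidneys (log2 fold change -2.203 ± 0.22, adjusted p = 2.26e-05). Cyp2s1, an epithelial form, rose instead (28.2 ± 5.8 FPKM in cisplatin kidneys and 9.06 ± 1.31 FPKM in untreated kidneys, log2 fold change 1.52 ± 0.16, adjusted p = 3.40e-05). Of 20 aldehyde dehydrogenases 6 rose and 8 fell, of 15 aldo-keto reductases 4 rose and 5 fell (3 without WT cisplatin replicate 3 or 4 or any of the untreated libraries), and of 9 carboxylesterases 1 rose and 4 fell.

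Within these families members of different branches went opposite ways. Aldh1a1, which oxidizes retinal, was at 44.9, 75.1, 38.8 and 92.1 FPKM in cisplatin kidneys, against 3.702, 3.52 and 3.601 FPKM in untreated kidneys (log2 fold change 3.702 ± 0.35, adjusted p = 2.01e-05). Aldh1a2, of the same pathway, rose too (28.4 ± 17.8 FPKM in cisplatin kidneys and 2.01 ± 0.458 FPKM in untreated kidneys, log2 fold change 3.01 ± 0.50, adjusted p = 0.000535). Aldh6a1, of valine breakdown, fell (161 ± 48.7 FPKM in cisplatin kidneys and 361 ± 13.6 FPKM in untreated kidneys, log2 fold change -1.21 ± 0.19, adjusted p = 0.000313). Akr1b8, a reductase of lipid aldehydes, rose (40.3 ± 13.3 FPKM in cisplatin kidneys and 2.38 ± 0.235 FPKM in untreated kidneys, log2 fold change 3.56 ± 0.38, adjusted p = 3.36e-05). Akr1c14, a steroid dehydrogenase, fell (66.7 ± 19.9 FPKM in cisplatin kidneys and 260.4 ± 19.5 FPKM in untreated kidneys, log2 fold change -1.99 ± 0.24, adjusted p = 7.64e-05). Ces2e rose to 153, 157, 135 and 214 FPKM in cisplatin kidneys, against 6.12, 5.02 and 4.67 FPKM in untreated kidneys (log2 fold change 4.71 ± 0.57, adjusted p = 6.91e-05). Ces1f, another liver-type esterase, fell (659 ± 143 FPKM in cisplatin kidneys and 1409 ± 82.7 FPKM in untreated kidneys, log2 fold change -1.12 ± 0.21, adjusted p = 0.00136). Of 10 genes known to be higher in male than in female mouse kidney, 0 rose and 9 fell, with a median of -2.37, the lowest of the lists described here. Cyp2e1, described above, is a member of that list. The sexes of the mice are not given in the labels, and whether the groups differ in sex was not tested.

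Cholesterol synthesis was lower and pentose phosphate genes were mostly higher. Of 23 cholesterol synthesis genes, 0 rose and 10 fell (median -0.48), 6 without untreated replicate 3. Idi1, which isomerizes isopentenyl diphosphate, stood at 15.8, 13.9, 14.5 and 14.3 FPKM in cisplatin kidneys, against 67.7, 46.2 and 57.6 FPKM in untreated kidneys (log2 fold change -1.88 ± 0.30, adjusted p = 0.000434). Cyp51, the lanosterol demethylase, stood at 112, 68.8, 51.97 and 45.2 FPKM in cisplatin kidneys, against 222, 196 and 214 FPKM in untreated kidneys (log2 fold change -1.67 ± 0.29, adjusted p = 0.000688). Hmgcs1, which makes HMG-CoA, stood at 104, 90.9, 87.4 and 82.5 FPKM in cisplatin kidneys, against 179.8, 205 and 209 FPKM in untreated kidneys (log2 fold change -1.11 ± 0.16, adjusted p = 0.000215). The treated libraries of Idi1 were almost equal and far below every untreated one, and the groups of the other two did not overlap either.

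CCAAT, the box bound by NF-Y, which works with the sterol regulator SREBP2 in these promoters, was found on 1 strand or the other in all 16 cholesterol synthesis genes with a promoter entry, and in 41.1% of all genes. The match nearest the gene start that lies upstream of it is in capitals below for the 3 genes just described, again along the gene's own strand, where ATTGG is the same box on the other strand.
Idi1: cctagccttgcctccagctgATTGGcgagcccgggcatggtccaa
Cyp51: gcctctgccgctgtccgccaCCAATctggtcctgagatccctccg
Hmgcs1: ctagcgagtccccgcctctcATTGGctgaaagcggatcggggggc

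The stretches lie at chr13:8885541-8885585 on the plus strand (Idi1), chr5:4104702-4104746 on the minus strand (Cyp51) and chr13:119690286-119690330 on the plus strand (Hmgcs1). Pgd and G6pdx, the dehydrogenases of the pentose phosphate pathway that make NADPH, rose: Pgd stood at 216, 173, 210.0 and 360.5 FPKM in cisplatin kidneys, against 68.8, 60.1 and 57.4 FPKM in untreated kidneys (log2 fold change 1.88 ± 0.20, adjusted p = 3.36e-05). G6pdx was at 46.7, 55.6, 61.6 and 68.2 FPKM in cisplatin kidneys, against 25.5, 23.6 and 23.5 FPKM in untreated kidneys (log2 fold change 1.21 ± 0.13, adjusted p = 4.16e-05). In all, 6 of 12 genes of that list rose and 3 fell, the falls including the mitochondrial Idh2 (log2 fold change -0.99 ± 0.15, adjusted p = 0.000241) and Mthfd1 (log2 fold change -0.74 ± 0.10, adjusted p = 0.000156).

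Breakdown of amino acids and glucose production were lower. Of 43 amino acid breakdown genes, 2 rose and 22 fell (median -0.51). Of 11 gluconeogenesis genes, 2 rose and 7 fell (median -0.79). The proximal tubule is the main site of both in the kidney. Fbp1, fructose bisphosphatase, stood at 928, 756, 493 and 728 FPKM in cisplatin kidneys, against 1459, 1482 and 1645 FPKM in untreated kidneys (log2 fold change -1.11 ± 0.18, adjusted p = 0.000449). Pcx, pyruvate carboxylase, stood at 104, 156, 85.4 and 108 FPKM in cisplatin kidneys, against 225, 239 and 236 FPKM in untreated kidneys (log2 fold change -1.07 ± 0.15, adjusted p = 0.000175). No treated library of either gene reached an untreated one, and replicate 3 was the lowest in both. In glycolysis 8 of 26 genes rose and 3 fell, with the glucose carrier Slc2a1 (log2 fold change 1.09 ± 0.15, adjusted p = 0.000127) and the platelet-type phosphofructokinase Pfkp (log2 fold change 1.19 ± 0.19, adjusted p = 0.000471) higher and the muscle-type Pfkm lower (log2 fold change -0.79 ± 0.12, adjusted p = 0.000249).

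Fat handling was divided. PPAR alpha is the nuclear receptor that turns on genes of fat use, and 13 of 28 of its targets rose while 2 fell (median 0.82). Plin2, which coats lipid droplets, stood at 725, 1487, 635 and 1177 FPKM in cisplatin kidneys, against 108, 112 and 115 FPKM in untreated kidneys (log2 fold change 3.07 ± 0.32, adjusted p = 3.11e-05). Angptl4, a secreted lipase inhibitor, stood at 76.6, 213, 115 and 134 FPKM in cisplatin kidneys, against 24.3, 21.9 and 13.7 FPKM in untreated kidneys (log2 fold change 2.64 ± 0.41, adjusted p = 0.000363). Replicate 2 was the highest treated library in both. Peroxisomal genes went the other way: 1 of 45 rose and 15 fell (median -0.27). Amacr, the racemase of branched fatty acids, stood at 44.8, 35.3, 32.4 and 23.98 FPKM in cisplatin kidneys, against 166, 189 and 161 FPKM in untreated kidneys (log2 fold change -2.33 ± 0.26, adjusted p = 4.35e-05). Agps, of ether lipid synthesis, stood at 77.4, 109, 88.2 and 76.8 FPKM in cisplatin kidneys, against 287, 311 and 257 FPKM in untreated kidneys (log2 fold change -1.695 ± 0.25, adjusted p = 0.000212). Xdh, xanthine dehydrogenase, was the exception that rose (21.5 ± 5.58 FPKM in cisplatin kidneys and 6.999 ± 2.06 FPKM in untreated kidneys, log2 fold change 1.49 ± 0.28, adjusted p = 0.00121), although 3 members rose without WT cisplatin replicate 3.

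The lists of nitrogen and folate enzymes were mixed. Gatm, the first enzyme of creatine synthesis, fell (85.1 ± 31.3 FPKM in cisplatin kidneys and 556 ± 53.8 FPKM in untreated kidneys, log2 fold change -2.76 ± 0.34, adjusted p = 7.60e-05), as did the urea cycle gene Ass1 (1232 ± 359.9 FPKM in cisplatin kidneys and 3763 ± 375 FPKM in untreated kidneys, log2 fold change -1.65 ± 0.20, adjusted p = 7.43e-05). Ckmt1, mitochondrial creatine kinase, rose (75.4 ± 8.895 FPKM in cisplatin kidneys and 39.9 ± 2.88 FPKM in untreated kidneys, log2 fold change 0.90 ± 0.13, adjusted p = 0.000208). In the list of serine and one-carbon metabolism, which also holds the asparagine synthetase gene Asns, 6 of 24 genes rose and 8 fell. Asns, an enzyme of neither pathway, stood at 15.6, 10.6, 22.6 and 12.5 FPKM in cisplatin kidneys, against 3.05, 2.67 and 2.93 FPKM in untreated kidneys (log2 fold change 2.02 ± 0.25, adjusted p = 8.68e-05). The mitochondrial Mthfd2 was at 18.4, 10.04, 24.2 and 12.7 FPKM in cisplatin kidneys, against 3.61, 2.41 and 4.04 FPKM in untreated kidneys (log2 fold change 1.94 ± 0.30, adjusted p = 0.000324). Both were higher without overlap, while Shmt2, the mitochondrial serine hydroxymethyltransferase, fell (log2 fold change -0.94 ± 0.13, adjusted p = 0.00013). Polyamine genes gave 4 rises and 4 falls of 12: the catabolic oxidase Smox rose (26.6 ± 10.2 FPKM in cisplatin kidneys and 5.59 ± 0.812 FPKM in untreated kidneys, log2 fold change 1.998 ± 0.25, adjusted p = 8.03e-05). The synthetic decarboxylase Odc1 fell (222 ± 37.7 FPKM in cisplatin kidneys and 687 ± 175 FPKM in untreated kidneys, log2 fold change -1.61 ± 0.33, adjusted p = 0.00211).

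Segment markers along the nephron changed unevenly, and falls prevailed in the proximal tubule and in the distal convoluted and connecting tubule. Of 20 markers of the first proximal segments (S1 and S2), 0 rose and 13 fell (median -0.82). Of 14 markers of the last (S3), 1 rose and 6 fell (median -0.49). Miox, which breaks down inositol in the proximal tubule, stood at 693, 746, 268 and 341 FPKM in cisplatin kidneys, against 1618, 1929.9 and 1858 FPKM in untreated kidneys (log2 fold change -1.94 ± 0.31, adjusted p = 0.000408). Slc7a13, the S3 cystine carrier, stood at 105, 48.9, 70.8 and 36.1 FPKM in cisplatin kidneys, against 633, 481 and 489 FPKM in untreated kidneys (log2 fold change -3.12 ± 0.34, adjusted p = 4.10e-05). Slc6a18, a neutral amino acid transporter of the same segment, moved the other way, at 306, 311, 224 and 372 FPKM in cisplatin kidneys, against 156, 128 and 149 FPKM in untreated kidneys (log2 fold change 1.05 ± 0.15, adjusted p = 0.000185). Its groups did not overlap.

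Beyond the proximal tubule, 0 of 16 markers of the distal convoluted and connecting tubule rose and 11 fell (median -0.85). They include Egf, at 165, 185, 113 and 70.5 FPKM in cisplatin kidneys, against 588, 542 and 585 FPKM in untreated kidneys (log2 fold change -2.19 ± 0.25, adjusted p = 5.42e-05). They also include Emx1, a homeobox gene of the distal tubule, at 13.1 ± 3.83 FPKM in cisplatin kidneys and 30.8 ± 2.37 FPKM in untreated kidneys (log2 fold change -1.21 ± 0.21, adjusted p = 0.000761). In the thick ascending limb 4 of 17 rose and 3 fell (2 rose without untreated replicate 2 or 3, and 6 fell without WT cisplatin replicate 1). There the chloride channel subunit Bsnd fell (11.4 ± 2.03 FPKM in cisplatin kidneys and 22.4 ± 0.937 FPKM in untreated kidneys, log2 fold change -0.92 ± 0.13, adjusted p = 0.000176). The claudins Cldn16 and Cldn14 rose (log2 fold change 1.15 ± 0.26, adjusted p = 0.0038 and log2 fold change 1.36 ± 0.21, adjusted p = 0.000331). Cldn14 was at 2.12, 1.83, 1.64 and 0.966 FPKM in cisplatin kidneys and at 0.0285, 0 and 0.01202 FPKM in untreated kidneys. Among 20 intercalated cell markers 4 rose (2 without untreated replicate 2) and 7 fell, and among 13 principal cell markers 2 rose and 1 fell, the water channel Aqp4 (7.87 ± 2.22 FPKM in cisplatin kidneys and 21.1 ± 5.77 FPKM in untreated kidneys, log2 fold change -1.32 ± 0.29, adjusted p = 0.00302). In the thick ascending limb 23.5% rose and 17.6% fell, and of principal cell markers 15.4% and 7.7%, against 22.3% and 12.1% of all genes.

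Of the transcription factors that define nephron segments, more fell than rose. Of 29, 2 rose and 14 fell (median -0.45). Esrrg, the estrogen-related receptor gamma of mitochondria-rich tubules, stood at 12.5, 18.5, 18.2 and 18.9 FPKM in cisplatin kidneys, against 35.1, 29.5 and 29.3 FPKM in untreated kidneys (log2 fold change -0.85 ± 0.14, adjusted p = 0.000623). Nr1h4, the bile acid receptor FXR, stood at 46.5, 60.6, 55.8 and 61.5 FPKM in cisplatin kidneys, against 89.5, 100.5 and 85.03 FPKM in untreated kidneys (log2 fold change -0.70 ± 0.11, adjusted p = 0.0004). Prox1, a homeobox factor best known from lymph vessels, stood at 1.09, 1.21, 1.03 and 0.7197 FPKM in cisplatin kidneys, against 3.24, 3.12 and 2.63 FPKM in untreated kidneys (log2 fold change -0.99 ± 0.15, adjusted p = 0.000239). The groups did not overlap in any of the 3. Hox genes gave 10 rises and 2 falls of 31, led by Hoxb6 (log2 fold change 0.78 ± 0.10, adjusted p = 0.00012) and Hoxb9 (log2 fold change 0.92 ± 0.15, adjusted p = 0.000551).

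**Figure D4:**
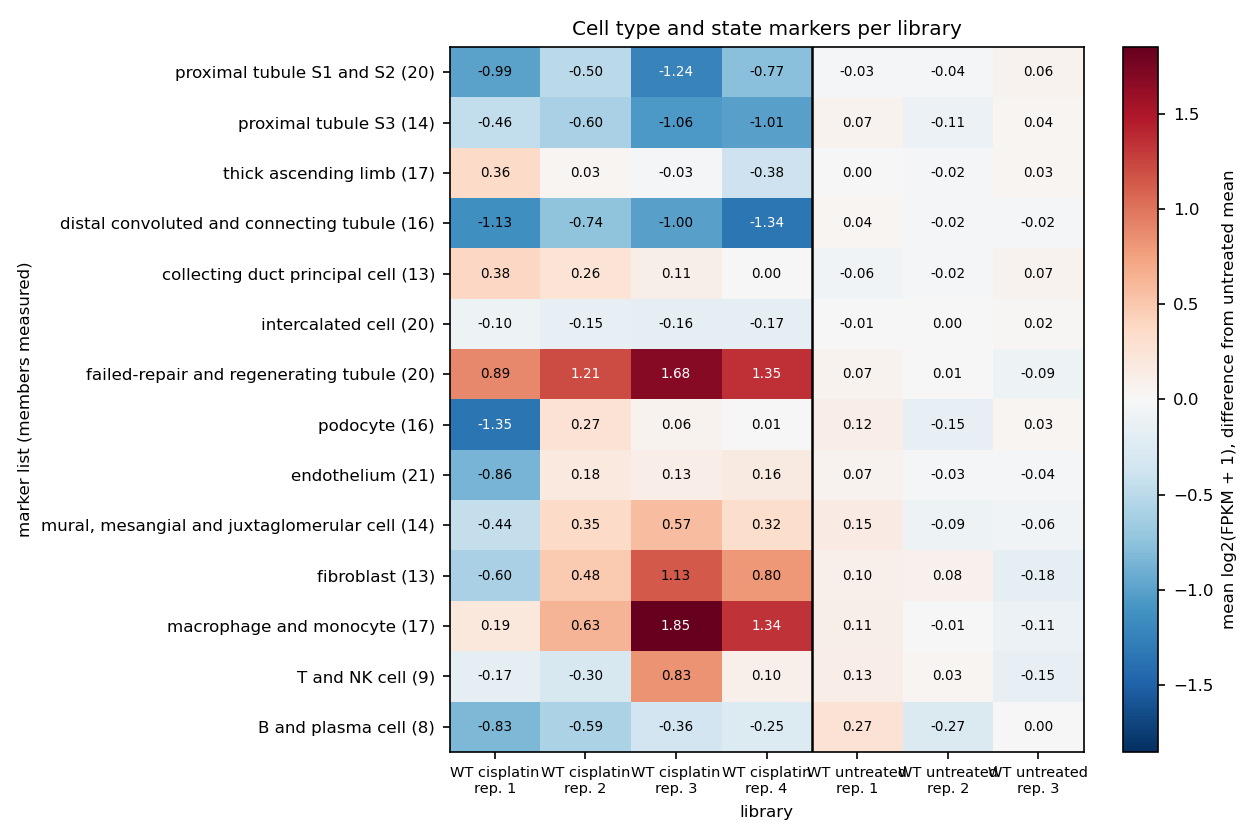
Mean log2(FPKM + 1) of the markers of 14 cell types and states in each WT library, as the difference from the mean of the untreated libraries, with the 4 cisplatin libraries left of the 3 untreated libraries. Proximal and distal tubule markers are below 0 and repairing tubule markers above 0 in all 4 cisplatin libraries, whereas podocyte, endothelial and fibroblast markers are below 0 in cisplatin replicate 1.

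Markers of glomerular, vascular and stromal cells were mostly not called, and WT cisplatin replicate 1 was below the other treated libraries in their scores. The podocyte score, the mean log2(FPKM + 1) of 16 markers, was 1.88 in WT cisplatin replicate 1 and 3.24 to 3.5 in cisplatin replicates 2 to 4, against 3.08 to 3.35 in untreated kidneys. For 21 endothelial markers it was 3.23 in replicate 1 and 4.22 to 4.27 in replicates 2 to 4, against 4.05 to 4.16 in untreated kidneys, and for 13 fibroblast markers 2.47 and 3.55 to 4.2, against 2.89 to 3.17 in untreated kidneys. Podocyte genes counted 0 rises and 2 falls, and 1 and 0 without that library, and 1 fell without WT cisplatin replicate 3 and 0 without untreated replicate 1, 2 or 3. Endothelial genes counted 2 and 1, and 4 and 0 without it, and 1 rose without untreated replicate 3. Fibroblast genes counted 2 and 0, and 4 and 0 without it, with the collagen gene Col3a1 at 22.3, 66.7, 230.0 and 119.8 FPKM in cisplatin kidneys, against 21.2, 17.05 and 13.6 FPKM in untreated kidneys (log2 fold change 2.18 ± 0.55, adjusted p = 0.00813).

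Genes of injured, repairing tubule rose in nearly all members. Of 20 markers of regenerating or failed-repair tubule, 17 rose and 1 fell (median 1.24). Sox9, a progenitor factor that proliferating tubule cells switch on, stood at 4.34, 10.1, 14.96 and 7.43 FPKM in cisplatin kidneys, against 0.1902, 0.1605 and 0.0786 FPKM in untreated kidneys (log2 fold change 3.05 ± 0.33, adjusted p = 3.95e-05). Prom1, the stem-cell marker CD133, stood at 48.7, 46.99, 48.2 and 55.04 FPKM in cisplatin kidneys, against 18.7, 12.1 and 14.9 FPKM in untreated kidneys (log2 fold change 1.66 ± 0.23, adjusted p = 0.000136). Cd24a, its usual companion, stood at 351, 327, 452 and 381 FPKM in cisplatin kidneys, against 149, 115 and 118 FPKM in untreated kidneys (log2 fold change 1.56 ± 0.18, adjusted p = 5.42e-05). The treated libraries of Prom1 were nearly equal, and no gene of the 3 showed overlap. Lhx1, a factor of early nephron patterning, was the member that fell (8.54 ± 2.61 FPKM in cisplatin kidneys and 19.4 ± 1.83 FPKM in untreated kidneys, log2 fold change -1.14 ± 0.21, adjusted p = 0.00128).

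Signals that act through the EGF receptor family were exchanged: the distal ligand Egf fell and other ligands rose. Of 13 ligands and receptors 5 rose and 1 fell. Nrg1, the ErbB3 and ErbB4 ligand, stood at 30.4, 34.5, 36.5 and 44.2 FPKM in cisplatin kidneys, against 2.99, 2.75 and 3.57 FPKM in untreated kidneys (log2 fold change 3.18 ± 0.34, adjusted p = 3.74e-05). Areg, amphiregulin, was at 2.04, 4.59, 5.11 and 1.51 FPKM in cisplatin kidneys and was listed at 0 in all untreated kidneys (adjusted p = 0.000215). Hbegf rose (21.7 ± 5.06 FPKM in cisplatin kidneys and 6.56 ± 0.765 FPKM in untreated kidneys, log2 fold change 1.57 ± 0.21, adjusted p = 0.000145). Of 22 feedback genes of MAP kinase signalling, the pathway downstream, 16 rose and 0 fell (median 0.999), among them the phosphatases Dusp5 (7.82 ± 2.33 FPKM in cisplatin kidneys and 1.02 ± 0.109 FPKM in untreated kidneys, log2 fold change 2.09 ± 0.20, adjusted p = 2.04e-05) and Dusp8 (11.1 ± 4.53 FPKM in cisplatin kidneys and 1.297 ± 0.328 FPKM in untreated kidneys, log2 fold change 2.34 ± 0.30, adjusted p = 9.29e-05).

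Cytokines of the gp130 family and their targets rose as well, with 9 of 22 JAK-STAT genes higher and 0 lower. Lif stood at 8.57, 12.4, 17.3 and 16.3 FPKM in cisplatin kidneys, against 0.3097, 0.217 and 0.157 FPKM in untreated kidneys (log2 fold change 3.53 ± 0.44, adjusted p = 8.24e-05). Clcf1, another ligand of that family, stood at 14.2, 17.6, 46.6 and 45.8 FPKM in cisplatin kidneys, against 3.74, 2.46 and 1.63 FPKM in untreated kidneys (log2 fold change 3.005 ± 0.40, adjusted p = 0.000123). Socs3, the feedback inhibitor that STAT3 induces, stood at 30.97, 39.8, 68.3 and 45.6 FPKM in cisplatin kidneys, against 3.47, 2.69 and 2.35 FPKM in untreated kidneys (log2 fold change 3.57 ± 0.47, adjusted p = 0.000115). All treated libraries were above all untreated ones, and replicate 1 was the lowest treated library of each. In FGF signalling Kl, the klotho co-receptor, fell (log2 fold change -1.97 ± 0.12, adjusted p = 5.69e-06). The ETS factor Etv4 rose (7.79 ± 2.06 FPKM in cisplatin kidneys and 0.755 ± 0.332 FPKM in untreated kidneys, log2 fold change 2.31 ± 0.35, adjusted p = 0.000274), in all 3 rises and 3 falls of 16 (6 rises without WT cisplatin replicate 1). Of 26 TGF beta and BMP genes 10 rose and 2 fell, with Bmp7, which protects tubules in rodents, lower (17.6 ± 1.26 FPKM in cisplatin kidneys and 28.9 ± 1.65 FPKM in untreated kidneys, log2 fold change -0.68 ± 0.11, adjusted p = 0.000516). YAP targets such as Cyr61 (log2 fold change 2.798 ± 0.33, adjusted p = 6.17e-05) and Ankrd1 (log2 fold change 2.23 ± 0.34, adjusted p = 0.000302) were among 7 of 17 that rose. Among hypoxia (HIF) targets 7 of 21 rose and 4 fell, the falls including Vegfa (109 ± 14.4 FPKM in cisplatin kidneys and 209 ± 27.9 FPKM in untreated kidneys, log2 fold change -0.93 ± 0.13, adjusted p = 0.000181) and Car9 (4.84 ± 1.75 FPKM in cisplatin kidneys and 27.9 ± 5.63 FPKM in untreated kidneys, log2 fold change -2.34 ± 0.32, adjusted p = 0.000137).

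Complement, coagulation and chemokine genes rose widely. Of 28 complement and coagulation genes 16 rose and 2 fell (median 1.18). Of 23 chemokines and receptors 13 rose and 2 fell (median 1.11). Cxcl2, a neutrophil attractant, was at 3.28, 6.06, 12.1 and 4.26 FPKM in cisplatin kidneys, against 0, 0 and 0.00957 FPKM in untreated kidneys (log2 fold change 2.75 ± 0.33, adjusted p = 6.79e-05). Cx3cl1, fractalkine, was at 172, 215, 335 and 251 FPKM in cisplatin kidneys, against 122, 109 and 97.2 FPKM in untreated kidneys (log2 fold change 1.11 ± 0.20, adjusted p = 0.000826). Cxcl12, a stromal chemokine, fell instead (40.1 ± 9.87 FPKM in cisplatin kidneys and 75.7 ± 4.01 FPKM in untreated kidneys, log2 fold change -0.93 ± 0.19, adjusted p = 0.00232). The inhibitor Il1rn was at 8.13, 8.86, 27.5 and 9.91 FPKM in cisplatin kidneys, against 0.0957, 0.284 and 0.0717 FPKM in untreated kidneys (log2 fold change 3.496 ± 0.42, adjusted p = 6.47e-05). Il34, a ligand of the CSF1 receptor of macrophages, was at 129, 139.7, 176 and 110.0 FPKM in cisplatin kidneys, against 28.2, 29.1 and 19.95 FPKM in untreated kidneys (log2 fold change 2.38 ± 0.40, adjusted p = 0.000627). Replicate 3 was the highest treated library in all of these but Cxcl12.

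Markers of white blood cells themselves were uneven among the treated libraries. Of 17 macrophage and monocyte markers 9 rose and 0 fell, and their score was 2.35 in WT cisplatin replicate 1 and 2.79 to 4.01 in cisplatin replicates 2 to 4, against 2.05 to 2.27 in untreated kidneys. Chil3, a chitinase-like protein of monocytes and macrophages, stood at 6.31, 4.82, 16.7 and 28.1 FPKM in cisplatin kidneys, against 0.112, 0.364 and 0.0564 FPKM in untreated kidneys (log2 fold change 3.38 ± 0.50, adjusted p = 0.000231). The complement gene C1qa was at 22.9, 35.2, 71.8 and 42.4 FPKM in cisplatin kidneys, against 14.97, 13.8 and 13.5 FPKM in untreated kidneys (log2 fold change 1.43 ± 0.27, adjusted p = 0.00142). Of 4 neutrophil markers 1 rose, 4 without WT cisplatin replicate 1 and 0 without cisplatin replicate 2, 3 or 4 or untreated replicate 2 or 3, and of 9 T and NK cell markers 1, the chemokine gene Ccl5, rose, at 7.72, 9.63, 109 and 14.5 FPKM in cisplatin kidneys, against 5.14, 5.301 and 2.23 FPKM in untreated kidneys (log2 fold change 1.996 ± 0.68, adjusted p = 0.036). Replicate 3 stood far above the others, and the call was lost without WT cisplatin replicate 4 (adjusted p = 0.0501) or without untreated replicate 1 (adjusted p = 0.0647), 2 (adjusted p = 0.065) or 3 (adjusted p = 0.135). Of 8 B and plasma cell markers 1 rose, Xbp1, a factor of secretory cells in general (log2 fold change 0.99 ± 0.14, adjusted p = 0.000221). Of the others Cd79a (log2 fold change -0.91 ± 0.22, adjusted p = 0.0063) and Cd79b (log2 fold change -0.65 ± 0.18, adjusted p = 0.0129), chains of the B cell receptor, fell, Cd79b not without untreated replicate 1 (adjusted p = 0.0638).

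Antigen presentation genes showed the same lead of 1 library: the MHC H2 score was 5.26 in cisplatin replicate 3 and 4.28, 4.24 and 4.27 in cisplatin replicates 1, 2 and 4, against 4.24 to 4.52 in untreated kidneys. Of 20 antigen presentation genes 7 rose and 0 fell (4 rose without untreated replicate 3), with the peptide transporter gene Tap2 at 24.9, 20.2, 44.6 and 21.8 FPKM in cisplatin kidneys, against 13, 13.5 and 9.65 FPKM in untreated kidneys (log2 fold change 1.09 ± 0.23, adjusted p = 0.00266). Of 39 interferon-induced genes 16 rose and 1 fell (10 and 8 rose without untreated replicate 2 or 3). Whether red-cell genes, which fell in the same kidneys, mark a change of blood cells that bears on these lists was not tested.

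Some DNA repair genes changed. Of 24 genes of interstrand crosslink and homologous repair 3 rose and 2 fell, shares at or below the background, and 6 rose without WT cisplatin replicate 1 and 1 without untreated replicate 1. Ercc1, a subunit of a nuclease that cuts out platinum adducts, was the clearest, at 19.6, 20.7, 26.7 and 29.1 FPKM in cisplatin kidneys, against 10.4, 9.59 and 8.47 FPKM in untreated kidneys (log2 fold change 1.24 ± 0.16, adjusted p = 9.57e-05). Of 30 excision repair genes 12 rose and 0 fell (7 rose without untreated replicate 3). That count depended on scaling: 7 rose and 2 fell after median-of-ratios scaling, and 8 rose and 3 fell after quantile normalization. Ercc5, which makes the other cut, was at 16.2, 18.1, 18.97 and 27.9 FPKM in cisplatin kidneys, against 10.6, 9.22 and 9.35 FPKM in untreated kidneys (log2 fold change 0.96 ± 0.18, adjusted p = 0.00129). Mgmt, which repairs alkylated guanine, was at 13.2, 9.598, 8.51 and 10.3 FPKM in cisplatin kidneys, against 1.93, 2.24 and 1.98 FPKM in untreated kidneys (log2 fold change 1.89 ± 0.29, adjusted p = 0.000348). The groups overlapped in none of these 3.

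Genes that restrain and genes that drive the cell cycle rose together. Of 22 genes of cycle brakes and G1 10 rose and 3 fell, with the p53 target Btg2 at 53.8, 66.98, 67.9 and 79.8 FPKM in cisplatin kidneys, against 7.89, 5.96 and 6.87 FPKM in untreated kidneys (log2 fold change 3.101 ± 0.40, adjusted p = 9.29e-05). Of 26 DNA synthesis genes 12 rose and 1 fell (7 rose without untreated replicate 3), and of 22 mitosis genes 10 rose and 0 fell. The mitosis count rested on few libraries: 20 rose without WT cisplatin replicate 1, 5 without replicate 3, 3 without replicate 4, and 2, 3 and 4 without untreated replicate 1, 2 or 3. Their median deviation from the untreated mean was 0.03, 0.32, 1.87 and 1.18 in cisplatin replicates 1 to 4. Kif23, a kinesin of cell division and a called member in every leave-one-out fit, was at 7.41, 5.598, 9.81 and 11.01 FPKM in cisplatin kidneys, against 1.38, 1.896 and 1.15 FPKM in untreated kidneys (log2 fold change 1.91 ± 0.24, adjusted p = 7.69e-05). Cdk1 was at 1.87, 2.06, 10.8 and 4.17 FPKM in cisplatin kidneys, against 0.595, 0.997 and 0.888 FPKM in untreated kidneys (log2 fold change 1.404 ± 0.39, adjusted p = 0.0132), and its call was lost without untreated replicate 1 (adjusted p = 0.0506).

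Survival and death genes of apoptosis rose side by side, 17 of 30 with 1 lower. The survival factor Bcl2l1 stood at 177, 176, 181 and 209 FPKM in cisplatin kidneys, against 79.7, 77.3 and 77.95 FPKM in untreated kidneys (log2 fold change 1.23 ± 0.10, adjusted p = 9.58e-06). The executioner Bax rose to 104, 84.01, 96.9 and 107 FPKM in cisplatin kidneys, against 28.7, 25.6 and 24.3 FPKM in untreated kidneys (log2 fold change 1.86 ± 0.20, adjusted p = 3.74e-05). Tnfrsf10b, the death receptor for TRAIL, stood at 5.85, 6.48, 10.9 and 12.1 FPKM in cisplatin kidneys, against 1.05, 0.902 and 0.758 FPKM in untreated kidneys (log2 fold change 2.32 ± 0.30, adjusted p = 9.83e-05). Tnfsf10, which encodes TRAIL, fell (13.97 ± 4.22 FPKM in cisplatin kidneys and 40.7 ± 7.21 FPKM in untreated kidneys, log2 fold change -1.502 ± 0.23, adjusted p = 0.000317). The groups did not overlap in any of these. Among senescence-related genes 12 of 20 rose and 2 fell, the falls including Glb1, whose product gives the usual enzyme stain of senescent cells (50.3 ± 6.23 FPKM in cisplatin kidneys and 86.1 ± 3.92 FPKM in untreated kidneys, log2 fold change -0.77 ± 0.15, adjusted p = 0.00173).

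Of 32 lysosomal genes 10 rose (31.2%, against 22.3% of all genes) and 4 fell (12.5%, against 12.1%). After median-of-ratios scaling 8 rose and 6 fell. The cathepsin Ctsd stood at 520.1, 403, 612 and 536 FPKM in cisplatin kidneys, against 188, 183 and 177 FPKM in untreated kidneys (log2 fold change 1.48 ± 0.17, adjusted p = 6.18e-05). Of 25 genes of metal handling 12 rose and 3 fell. Cp, the copper oxidase ceruloplasmin, stood at 92.7, 187, 243 and 202 FPKM in cisplatin kidneys, against 25.2, 24.6 and 24.2 FPKM in untreated kidneys (log2 fold change 2.74 ± 0.33, adjusted p = 6.60e-05). Slc31a1, the copper importer that also carries cisplatin, fell a little (40.3 ± 1.03 FPKM in cisplatin kidneys and 55.3 ± 1.82 FPKM in untreated kidneys, log2 fold change -0.45 ± 0.07, adjusted p = 0.000288). Heat shock genes gave 10 rises and 1 fall of 22 (6 rises without WT cisplatin replicate 3 and 6 without untreated replicate 1). The small heat shock protein Hspb1 was at 89.98, 121, 378 and 106 FPKM in cisplatin kidneys, against 15.1, 12.3 and 13.2 FPKM in untreated kidneys (log2 fold change 3.33 ± 0.41, adjusted p = 7.66e-05), with replicate 3 far above the rest.

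Clock output genes fell. Of 19 clock genes 2 rose and 8 fell. Tef, an output factor of the D-box family, stood at 197, 124, 133 and 124 FPKM in cisplatin kidneys, against 333, 365 and 379 FPKM in untreated kidneys (log2 fold change -1.34 ± 0.15, adjusted p = 4.96e-05). Hlf, its relative, was at 43.5, 42.7, 23.04 and 31.4 FPKM in cisplatin kidneys, against 88.4, 86.95 and 91.2 FPKM in untreated kidneys (log2 fold change -1.36 ± 0.19, adjusted p = 0.000181). Bhlhe40, a repressor of the clock, rose (126 ± 15.2 FPKM in cisplatin kidneys and 75.97 ± 2.51 FPKM in untreated kidneys, log2 fold change 0.72 ± 0.12, adjusted p = 0.000646). The labels do not give the hour at which kidneys were taken. Of 13 noncoding RNAs of stress and growth 6 rose and 0 fell, among them the small nucleolar RNA hosts Gas5 (79.1 ± 17.1 FPKM in cisplatin kidneys and 40.8 ± 0.711 FPKM in untreated kidneys, log2 fold change 0.91 ± 0.14, adjusted p = 0.000319) and Snhg15 (14.4 ± 3.37 FPKM in cisplatin kidneys and 2.74 ± 1.04 FPKM in untreated kidneys, log2 fold change 2.06 ± 0.38, adjusted p = 0.00105).

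Transport families were shared between rises and falls. Of 290 solute carriers 56 rose and 75 fell, of 33 ABC transporters 9 rose (5 without untreated replicate 2 or 3) and 11 fell, and of 34 potassium channel genes 4 rose and 9 fell (5, 4 and 5 without untreated replicate 1, 2 or 3). Slc34a2, the phosphate carrier of lung and gut, stood at 11.6, 28.5, 42.6 and 28.8 FPKM in cisplatin kidneys, against 3.04, 1.33 and 1.58 FPKM in untreated kidneys (log2 fold change 3.18 ± 0.38, adjusted p = 6.47e-05). Slc5a8, a monocarboxylate carrier of the proximal tubule, fell (log2 fold change -2.15 ± 0.21, adjusted p = 2.06e-05). The drug exporters Abcc3 (6.77 ± 1.895 FPKM in cisplatin kidneys and 1.63 ± 0.4401 FPKM in untreated kidneys, log2 fold change 1.55 ± 0.27, adjusted p = 0.000718) and Abcb1a (9.63 ± 3.01 FPKM in cisplatin kidneys and 3.06 ± 0.523 FPKM in untreated kidneys, log2 fold change 1.36 ± 0.24, adjusted p = 0.000722) rose. Kcnt1, a sodium-activated channel, stood at 2.13, 1.76, 1.63 and 1.07 FPKM in cisplatin kidneys, against 9.86, 8.92 and 7.39 FPKM in untreated kidneys (log2 fold change -1.88 ± 0.20, adjusted p = 3.36e-05).

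The WT response was then set against the response of cKO kidneys, which have their own untreated controls. The difference of the responses, WT minus cKO, was called for 617 genes (4.06%) with all libraries and for 331 (2.18%) without the library labelled cKO cisplatin replicate 4, and 315 genes were called both ways. Of these 315, 196 were called higher and 119 lower in WT. In cKO kidneys themselves the fit called 3 genes (0.0197%) with all libraries and 286 (1.88%) without that library. The count of differences also depended on single WT libraries: it was 2242 without WT cisplatin replicate 1, 408 and 323 without WT cisplatin replicate 3 or 4, and 228, 85 and 94 without untreated replicate 1, 2 or 3. The difference contains the WT response itself, so genes named for a large WT response, as those below were, are apt to show a large difference. Krt20 differed by 5.02 ± 0.71, adjusted p = 0.0103 with all libraries and by 4.499 ± 0.50, adjusted p = 0.00922 without that one. Its response was 6.31 ± 0.50 in WT, against 1.29 in cKO and 1.81 in cKO without that library. Akr1b8 differed by 3.18 ± 0.53, adjusted p = 0.0129 and by 2.88 ± 0.47, adjusted p = 0.0174 without it. On the falling side Slc12a3, the thiazide-sensitive transporter, differed by -3.07 ± 0.62, adjusted p = 0.0203 and by -3.02 ± 0.67, adjusted p = 0.0396 without it, and Car14 by -2.36 ± 0.44, adjusted p = 0.0168 and by -2.18 ± 0.43, adjusted p = 0.03. Of the 78 ribosomal proteins the difference was called for 2, and for 1 without that library. The cKO medians of that list were 0.48 and 0.45, against 0.80 in WT.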

How the data were processed

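RNA sequencing (TruSeq libraries of total RNA from whole kidney, per the labels) was measured in 14 libraries. The authors deposited 1 table of FPKM values for 49584 genes. Per the submitters' processing notes HISAT2 2.0.5 and mm10 were used, and the counter, annotation release, strand setting and library depth are not given in the sources used here. Of the gene IDs 99.5% matched GENCODE M21, which gave gene types and lengths. Within the lengths of that release, 49.62 to 55.02% of values of up to 500 reads came out as whole reads (tolerance 0.01), too few for a count test, but the commonest smallest step gives the relative depth, 40859598 to 76958969 reads in WT libraries, so FPKM of low genes carries the larger counting error. No pair of libraries held identical values.

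Values were taken as log2(FPKM + 1), so fold changes of low genes are understated. The 15193 genes averaging 0.5 FPKM or more across the 14 libraries were fitted in limma 3.58.1 (R 4.3.3) with all 4 groups, a mean trend of the variance and Benjamini-Hochberg adjustment, called at an adjusted p under 0.05. On simulated data of 15193 genes the fit called 74 of 100 genes changed by 1 and 99 of 100 changed by 2 on the log2 scale, with 8 false calls. How often the fit misses or wrongly calls genes in the kidney libraries themselves was not tested. Lists are described by counts and medians beside the shares of all genes called. Named genes are the 30 largest rises and 30 largest falls without overlap (mean of at least 1 FPKM, no predicted models) and, from each list, up to 4 called members with the smallest p and up to 2 that moved against it, some of which are not reported here. The genes and lists were chosen with earlier results of these data known. Alternatives were a pseudocount of 0.1, no filter or a mean of at least 2 FPKM, median-of-ratios and quantile scaling, only WT libraries, array weights, and leaving out each WT library.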

Additional observations from a re-analysis of the deposited data

Results flagged for a closer look

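Among the 4 cisplatin kidneys, 13 of the 180 genes named and 7 of the 79 lists scored had 1 library farther from the rest than Dixon's 95% critical value allows. Chance gives about 1 such case in 20. The high values were 14.1 FPKM for Abcb1a, 0.0982 FPKM for Alas2 and 51.6 FPKM for Kl in replicate 2, and 209 FPKM for Bcl2l1 and 143 FPKM for Cbr3 in replicate 4. In replicate 3 they were 109 FPKM for Ccl5, 378 FPKM for Hspb1, 27.5 FPKM for Il1rn, 8.69 FPKM for Rgs14 and 115 FPKM for Vars, and in replicate 1 197 FPKM for Tef. The low values were 155 FPKM for Mgst1 in replicate 3 and 12.5 FPKM for Esrrg in replicate 1.

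As mean log2(FPKM + 1), replicate 1 was low for podocyte markers (1.88), endothelial markers (3.23) and clock genes (3.84) and high for complex I genes (7.03). Replicate 2 was high for serine and one-carbon genes (4.77) and low for keratins (3.83), and replicate 3 was high for MHC H2 genes (5.26). What sets these libraries apart was not tested.

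The response to cisplatin differed between WT and cKO kidneys by a test of the difference itself in limma, for 617 genes with all 14 libraries and for 331 without the library labelled cKO cisplatin replicate 4. Among the 60 genes with the largest rises and falls in WT, a response that the difference contains, those with the largest difference both ways were, on the log2 scale and with all libraries, WT minus cKO, Krt20 at 5.02, Havcr1 at 4.14, Serpina10 at 3.37, Akr1b8 at 3.18 and Sprr2g at 3.10. On the falling side they were Inmt at -4.52, Slc12a3 at -3.07, Pvalb at -2.69, Ces1e at -2.50 and Dnase1 at -2.49.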

How the results depend on the processing

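No paired analysis was possible because the labels give no replicate numbers, and the numbers used here follow the order of the samples. With 3392 genes higher and 1832 lower as reported, leaving out 1 WT library gave 2457 to 4447 higher and 1359 to 2005 lower, and the other settings run gave 2529 to 3411 higher and 1435 to 2600 lower, except array weights with 5264 higher. Of the 5224 calls, between 3799 and 5167 were called in the same direction under each setting that kept all genes. The difference of the responses of WT and cKO kidneys, called for 617 genes, was called for 255 with no filter on low values, 3429 with array weights, 331 without the library labelled cKO cisplatin replicate 4, and 85 to 2242 without 1 WT library, and for 522 to 748 under the other settings run. The cause of these shifts was not tested. Of 177 named genes that were called, 169 kept call and direction under every setting that tested them and none reversed. Ccl5, Cd79b, Cdk1, Cldn8, Cldn10, S100g, Sugct and Ugt1a10 lost their call under at least 1. Counts of 1 to 5 members in the smaller direction of a list often moved by 1 to 3 genes when a library was left out. Rescaling to a common sum, leaving out cKO cisplatin replicate 4 and, for the difference, the filters and the leaving out of WT libraries were chosen after seeing the data. Depth limits low genes most, and 21 named genes overlap another gene with at least 10% of their FPKM, from which their reads cannot be told apart.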

Other observations

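Guidance, Wnt and immediate-early genes changed in the same kidneys. Semaphorins, ephrins and Eph receptors are contact and guidance signals, and of 33 measured 13 rose and 5 fell (8 and 7 rose without untreated replicate 2 or 3). Sema3c, a secreted semaphorin, stood at 36.4, 59.6, 76.9 and 76.5 FPKM in cisplatin kidneys, against 15.2, 16.1 and 15.7 FPKM in untreated kidneys (log2 fold change 1.87 ± 0.20, adjusted p = 3.49e-05), and Epha2, an Eph receptor of epithelia, at 20.4, 35.6, 48.8 and 53.3 FPKM in cisplatin kidneys, against 5.97, 8.102 and 6.84 FPKM in untreated kidneys (log2 fold change 2.27 ± 0.28, adjusted p = 7.60e-05). In both, replicate 1 was the lowest treated library and still above every untreated one. Of 23 AP-1 and ATF factors 11 rose and 1 fell, with Fosl1 at 8.1, 15.8, 22.7 and 20.6 FPKM in cisplatin kidneys, against 0.705, 0.724 and 0.5405 FPKM in untreated kidneys (log2 fold change 3.34 ± 0.28, adjusted p = 1.26e-05) and Maff, a small Maf partner of such factors, at 13.2, 14.8, 21.1 and 18.6 FPKM in cisplatin kidneys, against 2.13, 1.19 and 1.29 FPKM in untreated kidneys (log2 fold change 2.82 ± 0.29, adjusted p = 2.81e-05). Of 22 Wnt pathway genes 3 rose and 2 fell, shares below the background of 22.3% and 12.1%, and 5 rose without WT cisplatin replicate 1. Yet the ligand gene Wnt10a was at 8.25, 4.81, 6.34 and 7.07 FPKM in cisplatin kidneys, against 0.765, 0.605 and 0.4102 FPKM in untreated kidneys (log2 fold change 2.24 ± 0.28, adjusted p = 8.27e-05) and the secreted Wnt inhibitor gene Sfrp1 at 6.54, 6.897, 11.7 and 5.77 FPKM in cisplatin kidneys, against 30.4, 28.7 and 25.8 FPKM in untreated kidneys (log2 fold change -1.79 ± 0.21, adjusted p = 6.18e-05). The groups overlapped in none of these genes.

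By gene type, 3185 of 13091 protein-coding genes rose and 1575 fell. Of 309 genes annotated as antisense, 14 rose and 74 fell, of 259 lincRNA genes 19 rose and 39 fell, and of 641 processed pseudogenes 116 rose and 27 fell. Reads of pseudogenes and of antisense genes cannot be told apart from those of their parent or partner genes here. Of 171 immunoglobulin variable genes 0 rose and 22 fell (median log2 fold change -0.75). The share that fell was near the 12.1% of all genes, while 22.3% of all genes rose. Gapdh, often used to scale other genes, was at 13.2, 9.83, 10.6 and 15.1 FPKM in cisplatin kidneys, against 13.5, 66.1 and 163 FPKM in untreated kidneys and ranged between 7.43 and 223 FPKM over all 14 libraries. It was not called (log2 fold change -2.06 ± 1.12, adjusted p = 0.176). Reads that Gapdh may share with pseudogene copies or with the overlapping gene Iffo1 cannot be told apart here, so its true level is uncertain. What made its values vary was not tested.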
